A study of Homo sapiens with 12 samples.

Results

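The unfolded protein response and protein folding in the endoplasmic reticulum (ER) are represented here by 10 genes: XBP1, ERN1, ATF6, HERPUD1, SDF2L1, PDIA4, PDIA6, CALR, CRELD2 and MANF. They were chosen by symbol, with earlier results of these data known, from the 25433 genes listed in either count table. All 10 passed the filter on low counts in every comparison. The samples were 12 RNA libraries of A549, a human lung adenocarcinoma cell line, in 3 groups of 4. The first group received 10 ng/mL TGF-β1, a cytokine that moves epithelial cells to a mesenchymal state, together with 40 mM sodium acetate. The second received TGF-β1 alone and the third was the control, all for 2 days. All groups shared the growth medium with serum, and the labels name neither a vehicle for the control nor a group with acetate or sodium alone. Nothing in the labels tells separate cultures from repeat preparations within a group. The p-values therefore rest on the spread between libraries, which may be technical. The genetic background is that of 1 tumour cell line.

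The unfolded protein response is the set of signals by which a cell matches the folding capacity of its ER to the load of proteins entering it. ERN1 (IRE1α) senses unfolded protein in the ER lumen and splices the XBP1 transcript, whose spliced form encodes a transcription factor. ATF6 leaves the ER under stress, is cut by Golgi proteases and enters the nucleus. The third sensor, PERK (EIF2AK3), phosphorylates eIF2α and raises the translation of ATF4. XBP1 and ATF6 act on promoters of folding genes through the ER stress response element, in which a CCAAT box bound by NF-Y is separated from CCACG by a fixed spacer. TGF-β1 is known to raise collagen and other secreted matrix proteins, which pass through the ER.

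Promoter windows of the members were read from RefSeq (GRCh38.p14) as 300 bp each, from 250 bases before to 50 after an annotated start, and were searched on both strands. The ER stress response element (ERSE), CCAAT followed after a spacer of 9 bases by CCACG, was present in 0.0769% of the 35116 windows and in a window of XBP1, PDIA6, CALR and CRELD2. The related ERSE-II, ATTGG followed after a spacer of 1 base by CCACG, was present in 0.0541% of windows and in those of HERPUD1 and SDF2L1. Both contain CCACG and, on one strand or the other, CCAAT. These 6 windows are shown because they carry the matches. Capitals mark the fixed letters of the match, in whichever orientation it lies, and each sequence runs 5′ to 3′ on the strand of its gene.
XBP1, chr22:28800570-28800661, minus strand: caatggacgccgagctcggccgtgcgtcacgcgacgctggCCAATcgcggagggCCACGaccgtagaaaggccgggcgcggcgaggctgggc
PDIA6, chr2:10812813-10812911, minus strand: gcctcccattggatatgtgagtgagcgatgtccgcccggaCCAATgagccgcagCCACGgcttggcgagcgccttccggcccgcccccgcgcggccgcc
CALR, chr19:12938359-12938442, plus strand: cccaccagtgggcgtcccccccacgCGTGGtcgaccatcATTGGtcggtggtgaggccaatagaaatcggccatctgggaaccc
CRELD2, chr22:49918514-49918612, plus strand: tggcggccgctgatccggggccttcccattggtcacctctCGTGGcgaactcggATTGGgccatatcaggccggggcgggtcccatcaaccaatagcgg
HERPUD1, chr16:56931985-56932075, plus strand: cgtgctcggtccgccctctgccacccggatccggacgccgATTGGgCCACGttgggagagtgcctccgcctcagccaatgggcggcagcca
SDF2L1, chr22:21642074-21642164, plus strand: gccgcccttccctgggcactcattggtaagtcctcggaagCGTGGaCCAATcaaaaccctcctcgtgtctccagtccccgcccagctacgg

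In XBP1 and PDIA6 the match reads in the direction of the gene, and in CALR and CRELD2 it reads on the opposite strand. No member window held TGACGTGG (0.729% of all windows) or the cyclic AMP response element TGACGTCA (1.85% of all windows). The short parts were common, with CCACG in 38.1% of windows and in those of 8 members, and CCAAT in 34.6% of windows and in those of 9 members. The window of CRELD2 overlaps that of ALG12, its neighbour on the opposite strand, so that both genes hold the same match. A match is a string of letters and not a measured binding site.

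Total counts ran from 34698057 to 41575904 in the TGF-β1 plus acetate libraries, from 37202599 to 53936023 in the TGF-β1 libraries and from 38400896 to 53055990 in the control libraries. Levels below are CPM (counts scaled to a common library total), with totals adjusted by TMM factors, and 3 counts amounted to 0.0556 to 0.0865 CPM. No sample label ties a count column to its group: the columns were placed by the tables' names and by the columns that both tables share, and every comparison rests on that placement. Libraries therefore carry their column codes (S22 to S25 for TGF-β1 plus acetate, S15 to S18 for TGF-β1, S1 to S4 for control). Of 7 epithelial markers, 6 were in both tables, and together they summed to 4160 to 4890 CPM with TGF-β1 plus acetate, 3480 to 3800 CPM with TGF-β1 and 4210 to 4430 CPM in control. The keratin genes KRT8 and KRT18 made up nearly all of that sum, and the other markers moved more. E-cadherin (CDH1) averaged 45.5 ± 2.56 CPM with TGF-β1 plus acetate, 1.45 ± 0.394 CPM with TGF-β1 and 58.7 ± 2.80 CPM in control (SD, n = 4 each). Of the 6, 4 were lower and 1 higher with TGF-β1 than in control (median log2 fold change -1.20), and 6 were higher with TGF-β1 plus acetate than with TGF-β1 (median 1.84). Of 14 markers of other cell types, 6 were in both tables and summed to 43.7 to 45.8 CPM, 22.7 to 26.9 CPM and 13.0 to 14.9 CPM in the same groups. CD68 was the largest part of that sum. Of 6 tested, 6 were higher with TGF-β1 than in control (median log2 fold change 2.44; 5 with library totals). With TGF-β1 plus acetate against TGF-β1, 4 were higher and 1 lower (median 0.73). DCN, PDGFRA, PDGFRB and LUM averaged only 0.0264 to 0.407 CPM in control. The leukocyte, endothelial and red cell markers PTPRC, CD3E, LYZ, PECAM1, VWF, CDH5 and HBB were in neither table. What part these markers have in the results below was not tested. In bulk RNA, fewer cells with a transcript and less of it per cell cannot be told apart.

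TGF-β1 library S17 stood apart from the other 3 of its group in ATF4 and in genes of its output. It did not in the chaperone genes HSPA5 and HSP90B1, where it was 0.053 and 0.0078 above the others' mean in log2 CPM. ATF4, the transcription factor downstream of PERK, measured 195, 206, 277 and 214 CPM in S15 to S18. The glutathione-degrading enzyme CHAC1, a target of ATF4 that was singled out after its values were seen, measured 0.686, 0.913, 7.91 and 0.950 CPM in the same libraries. S17 was the highest TGF-β1 library for 4 members, among them XBP1 and HERPUD1, whose results are given with and without it. S18 was also the highest for 4 members, and S15 was the lowest for 8. Control library S2 was the highest control library for 4 members and the lowest for 5. The heat map of deviations shows all of these libraries.

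**Figure D1:**
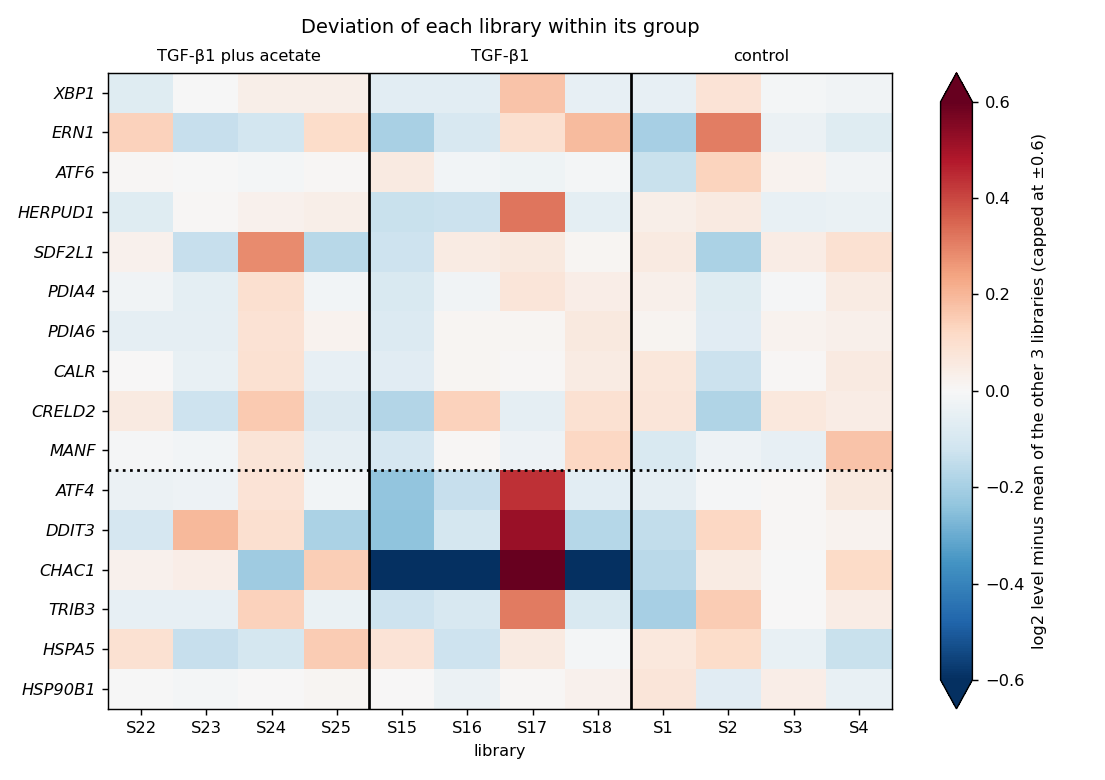
Difference of each library from the mean of the other 3 libraries of its group, as log2 CPM, for the 10 members (above the dotted line) and 6 other genes named in the text; rows are genes, columns are libraries grouped by treatment, and the colour scale ends at ±0.6. S17 is high for XBP1, HERPUD1, ATF4, DDIT3, TRIB3 and CHAC1. S2 is high for ERN1, TRIB3, ATF6, DDIT3, HSPA5 and XBP1 and low for SDF2L1, CRELD2 and CALR.

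TGF-β1 was set against control to ask how the cytokine alone moved these genes. Of the members, 6 passed the test upward, all genes of ER folding (CALR, MANF, PDIA4, PDIA6, CRELD2 and SDF2L1), and 3 passed it downward, the sensor genes ERN1 and ATF6 and the transcription factor gene XBP1, with edgeR's quasi-likelihood test at an adjusted p below 0.05. Across the 22051 genes tested, 66.9% passed, 34.1% upward and 32.8% downward. Libraries of both groups did not overlap for 9 members, against 61.4% of all genes (31.1% upward and 30.4% downward). Without S17 all 10 members passed, 6 upward and 4 downward. The median absolute log2 fold change was 0.753 over the members and 0.364 over all genes.

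**Figure D2:**
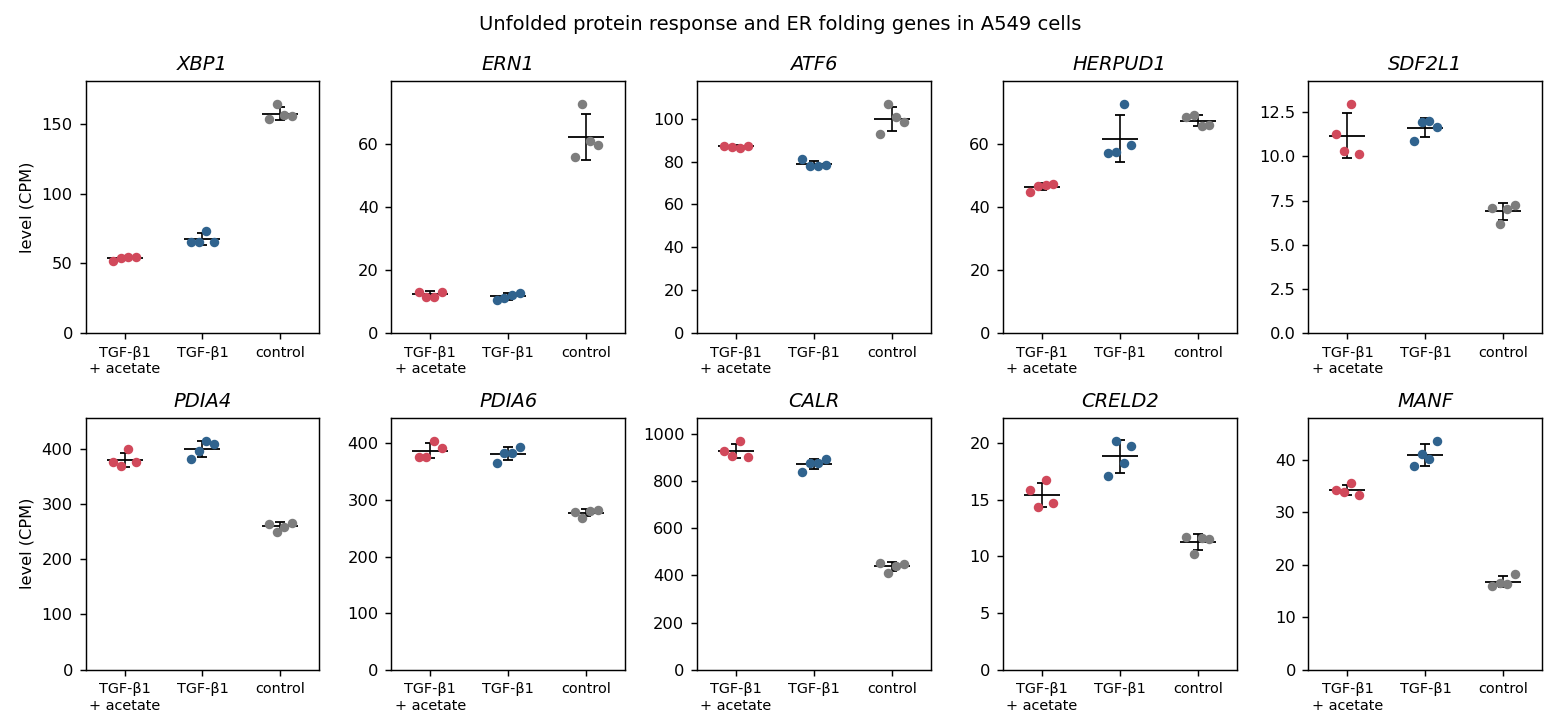
Level of each member (CPM) in every library, by group, with TGF-β1 plus acetate on the left, TGF-β1 in the middle and control on the right; points are libraries, bars the mean and SD of 4, and each axis starts at 0. ERN1 and XBP1 are highest in control, while CALR, MANF, PDIA4, PDIA6, CRELD2 and SDF2L1 are lowest there.

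ERN1 (ENSG00000178607.15; hg38 17:64039142-64130819, minus strand) encodes the kinase and endoribonuclease of the response. It measured 10.4, 11.0, 12.2 and 12.8 CPM in the TGF-β1 libraries, against 55.8, 72.6, 60.8 and 59.5 CPM in control libraries. No TGF-β1 library came near a control library. ERN1 was 5.33-fold lower, a log2 fold change of -2.42 ± 0.08 (SE) with an edgeR adjusted p of 9.2e-14. Of the members it had the largest change in this comparison. Without S2, the highest control library, the log2 fold change was -2.36.

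XBP1 (ENSG00000100219.16; 22:28794555-28800597, minus strand) encodes the transcription factor whose messenger ERN1 splices. Counts per gene add up its spliced and unspliced forms, so nothing here measures splicing. It had 65.1, 65.0, 73.5 and 65.5 CPM with TGF-β1, against 154, 164, 156 and 156 CPM in control. The groups were far apart, with S17 the highest of the TGF-β1 libraries. XBP1 fell 2.33-fold, by a log2 fold change of -1.22 ± 0.04 (SE; edgeR adjusted p = 2.3e-13), and the log2 fold change was -1.26 without S17.

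ATF6 (ENSG00000118217.5; 1:161766294-161964070, plus strand), the sensor cut in the Golgi, changed less. It had 81.2, 78.1, 77.7 and 78.4 CPM with TGF-β1, against 93.0, 107, 101 and 98.5 CPM in control. The groups did not overlap, and control libraries were more spread out (SD 5.76 CPM) than TGF-β1 libraries (SD 1.57 CPM, n = 4 each). The log2 fold change was -0.33 ± 0.04 (SE; edgeR adjusted p = 2.1e-06).

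CALR (ENSG00000179218.13; 19:12938578-12944489, plus strand) encodes calreticulin, a calcium-binding lectin chaperone of glycoproteins. It was at 841, 876, 875 and 893 CPM in TGF-β1 libraries, against 454, 409.6, 439 and 450.1 CPM in control libraries. CALR was the member with most reads in every library, and its level rose 2.00-fold (log2 fold change 1.00 ± 0.04, SE; edgeR adjusted p = 4.9e-13). An exon of the clone-named gene AC092069.1 lies opposite to it.

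MANF (ENSG00000145050.15; 3:51385047-51389397, plus strand) encodes a small secreted protein of the ER that binds the chaperone BiP. TGF-β1 libraries held 38.8, 41.1, 40.2 and 43.7 CPM, against 15.9, 16.4, 16.3 and 18.3 CPM in control. No TGF-β1 library came near a control library. MANF rose 2.45-fold, the largest rise of the members, with a log2 fold change of 1.29 ± 0.05 (SE; edgeR adjusted p = 1.2e-12).

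The protein disulfide isomerases PDIA4 (ENSG00000155660.10; 7:149003062-149028641, minus strand) and PDIA6 (ENSG00000143870.12; 2:10783391-10837977, minus strand) form and rearrange disulfide bonds. PDIA4 had 381, 395, 415 and 408 CPM with TGF-β1, against 264, 249.5, 258 and 266 CPM in control. PDIA6 had 366, 384, 384 and 394 CPM with TGF-β1, against 279.7, 268, 281 and 281 CPM in control. Both rose without overlap of the groups. The log2 fold changes were 0.63 ± 0.04 for PDIA4 (edgeR adjusted p = 1.4e-10) and 0.47 ± 0.03 for PDIA6 (edgeR adjusted p = 3.1e-09; both SE). Without S2, the lowest control library for PDIA6, its log2 fold change was 0.42.

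CRELD2 (ENSG00000184164.14; 22:49918167-49927540, plus strand) encodes an ER protein with EGF-like domains. Its values were 17.1, 20.2, 18.2 and 19.7 CPM with TGF-β1, against 11.7, 10.2, 11.6 and 11.5 CPM in control. SDF2L1 (ENSG00000128228.4; 22:21642261-21644298, plus strand), a partner of ER chaperones of the DnaJ type, had 10.9, 11.95, 12.01 and 11.7 CPM with TGF-β1, against 7.08, 6.18, 7.05 and 7.24 CPM in control. These were the members with the lowest control levels in CPM, and both rose with no overlap. The log2 fold changes were 0.74 ± 0.06 for CRELD2 (edgeR adjusted p = 2.8e-08) and 0.76 ± 0.07 for SDF2L1 (edgeR adjusted p = 3.7e-08; both SE). Without S2 they were 0.67 and 0.68.

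HERPUD1 (ENSG00000051108.14; 16:56932048-56944863, plus strand), a membrane protein that scaffolds the degradation of misfolded ER proteins, was the member that did not pass. It had 57.2, 57.3, 72.7 and 59.6 CPM with TGF-β1, against 68.5, 69.2, 65.7 and 65.9 CPM in control. Of the TGF-β1 libraries 3 lay below every control library, and S17 lay above all of them. The log2 fold change was -0.12 ± 0.06 (SE; edgeR adjusted p = 0.10). Without S17 it was -0.21 with an adjusted p of 2.7e-04. With all libraries but library totals in place of TMM factors it was -0.22 (edgeR adjusted p = 0.0037). The call thus depends on S17 and on the scaling. In the authors' deposited table HERPUD1 has a q-value of 0.0243 with all libraries. The authors' q-values and the adjusted p given here are different measures. For TGF-β1 plus acetate against TGF-β1, PDIA4 has a deposited q-value of 0.0203, beside an edgeR adjusted p of 0.14.

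TGF-β1 plus acetate was set against TGF-β1 to ask what acetate added to cells that also received the cytokine. Changes of the members were small: 2 passed upward (ATF6 and CALR), 4 downward (HERPUD1, XBP1, CRELD2 and MANF), and PDIA4, PDIA6, ERN1 and SDF2L1 did not pass. Without S17, 5 members passed, CALR being lost. The background was 63.7% of 22336 genes, 33.3% upward and 30.4% downward. The groups did not overlap for 6 members, against 57.4% of all genes (30% upward and 27.4% downward). The median absolute log2 fold change was 0.126 over the members and 0.339 over all genes. Here and in the previous comparison, the genes were not matched to the members in level. The 4 TGF-β1 libraries are the same as in the previous comparison, so values of the 2 comparisons are not independent.

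XBP1 had 51.8, 53.8, 54.8 and 54.8 CPM with TGF-β1 plus acetate, against the 65.0 to 73.5 CPM given above for TGF-β1. Every acetate library lay below every TGF-β1 library. The log2 fold change was -0.31 ± 0.04 (SE; edgeR adjusted p = 1.3e-05), and without S17 it was -0.29. XBP1 was thus lowest with TGF-β1 plus acetate among the 3 groups.

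HERPUD1 had 44.7, 46.6, 47.0 and 47.3 CPM with TGF-β1 plus acetate, against 57.2 to 72.7 CPM with TGF-β1. Acetate libraries were close together (SD 1.18 CPM) and below all TGF-β1 libraries (SD 7.41 CPM, n = 4 each). The log2 fold change was -0.40 ± 0.06 (SE; edgeR adjusted p = 4.6e-05), the largest of the members here. It was -0.34 without S17.

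MANF had 34.2, 33.9, 35.7 and 33.4 CPM with TGF-β1 plus acetate, against 38.8 to 43.7 CPM with TGF-β1. CRELD2 had 15.8, 14.4, 16.7 and 14.7 CPM with TGF-β1 plus acetate, against 17.1 to 20.2 CPM with TGF-β1. Neither gene overlapped between the groups, and for CRELD2 the highest acetate library lay just below the lowest TGF-β1 library. The log2 fold changes were -0.25 ± 0.04 for MANF (edgeR adjusted p = 1.3e-04) and -0.28 ± 0.07 for CRELD2 (edgeR adjusted p = 0.0016; both SE).

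ATF6 had 87.5, 86.9, 86.5 and 87.4 CPM with TGF-β1 plus acetate, against 77.7 to 81.2 CPM with TGF-β1. The acetate libraries were the most alike of any member in any group (SD 0.465 CPM). The log2 fold change was 0.15 ± 0.03 (SE; edgeR adjusted p = 8.0e-04). CALR had 929, 906, 972 and 905 CPM with TGF-β1 plus acetate, against 841 to 893 CPM with TGF-β1. Its groups were next to each other without overlap, and the log2 fold change was 0.10 ± 0.03 (SE; edgeR adjusted p = 0.014). This call was lost without S15, S16 or S17 (log2 fold changes 0.06, 0.08 and 0.08 with adjusted p of 0.14, 0.083 and 0.087).

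Among the 4 members that did not pass, the libraries of both groups overlapped. ERN1 had 13.1, 11.3, 11.5 and 13.0 CPM with TGF-β1 plus acetate (log2 fold change 0.09 ± 0.08; edgeR adjusted p = 0.33). SDF2L1 had 11.3, 10.3, 13.0 and 10.2 CPM with TGF-β1 plus acetate (log2 fold change -0.05 ± 0.08; edgeR adjusted p = 0.62). Both are members of low level, whose SE was larger than that of the disulfide isomerases. PDIA4 had 375, 369, 399 and 377 CPM (-0.06 ± 0.04; edgeR adjusted p = 0.14), and its call was gained without S15 (-0.11, adjusted p = 0.012) or without S24 (-0.09, adjusted p = 0.031). PDIA6 had 377, 377, 405 and 392 CPM (0.03 ± 0.03; edgeR adjusted p = 0.44).

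The scale mattered for the acetate effect. When totals were used without TMM factors, the median log2 fold change of all genes moved by 0.13, and 67.1% of passing genes were then higher, against 52.3% with TMM. XBP1 then had a log2 fold change of -0.18 (edgeR adjusted p = 0.0019), HERPUD1 -0.27, CRELD2 -0.15 and MANF -0.11. ATF6 had 0.28 and CALR 0.23, and all 6 kept their calls. PDIA6 (0.16) and ERN1 (0.22) passed upward on that scale, which made 4 members higher and 4 lower, while PDIA4 (0.07) and SDF2L1 (0.08) changed sign without passing.

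**Figure D3:**
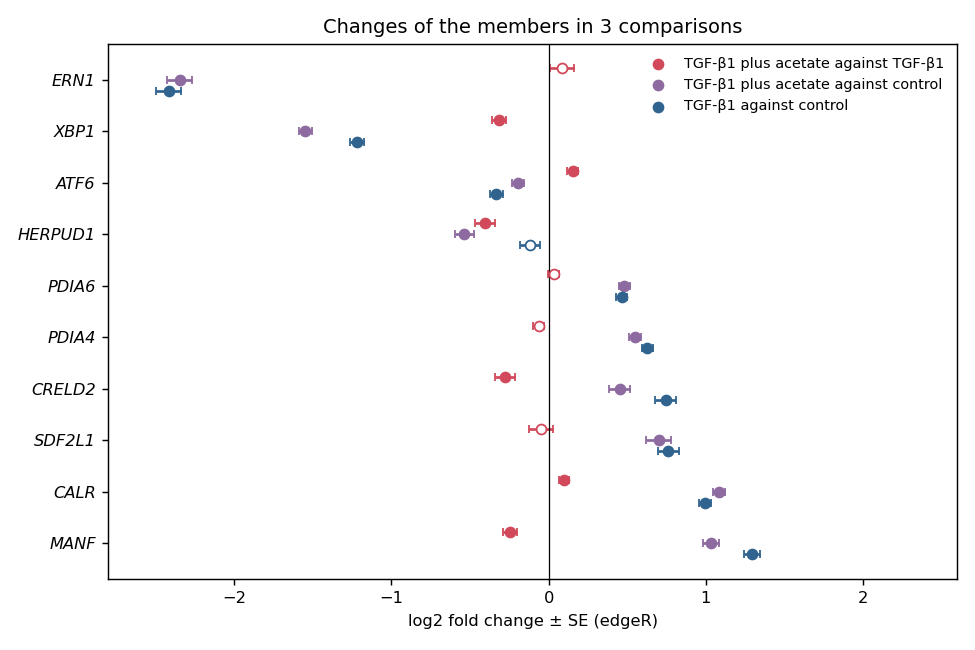
Log2 fold change of each member in the 3 comparisons, with bars of 1 SE from edgeR; filled circles passed the test at an adjusted p below 0.05, open circles did not, and the vertical line is no change. ERN1 at -2.42 and MANF at 1.29 are the extremes of TGF-β1 against control, and the acetate comparison runs from -0.40 (HERPUD1) to 0.15 (ATF6).

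TGF-β1 plus acetate was also set against control, in a fit of all 12 libraries. All 10 members passed, 6 upward and 4 downward, against 70.6% of 22742 genes (36.1% upward and 34.4% downward). The libraries of both groups did not overlap for any member, against 64% of all genes without overlap (32.4% upward and 31.6% downward). ERN1 had a log2 fold change of -2.35 ± 0.08 and XBP1 of -1.55 ± 0.04. CALR had 1.08 ± 0.04 and MANF 1.03 ± 0.05. HERPUD1, which did not pass with TGF-β1 alone, had -0.54 ± 0.06 (edgeR adjusted p = 1.3e-07), and ATF6 had -0.20 ± 0.04 (edgeR adjusted p = 1.5e-04). PDIA4 (0.55), PDIA6 (0.48), SDF2L1 (0.70) and CRELD2 (0.45) were higher with TGF-β1 plus acetate, with the smallest rise in CRELD2.

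Levels of different genes were compared per kilobase of the longest annotated transcript (CPM per kb). With TGF-β1 plus acetate the order was CALR (487), PDIA6 (144), PDIA4 (131), XBP1 (24.8), MANF (22.7), HERPUD1 (15.7), SDF2L1 (12.9), ATF6 (11.6), CRELD2 (5.87) and ERN1 (1.55), with no overlap between neighbours over the 4 libraries. With TGF-β1 the order was the same, from CALR (458) to ERN1 (1.47), and only PDIA6 (142) and PDIA4 (138) overlapped. In control the order was CALR (230.3), PDIA6 (103), PDIA4 (89.3), XBP1 (72.5), HERPUD1 (22.9), ATF6 (13.3), MANF (11.1), SDF2L1 (7.96), ERN1 (7.89) and CRELD2 (4.30). There SDF2L1 and ERN1 overlapped. XBP1 stood close below PDIA4 in control and far below it in both treated groups, where ERN1 was the lowest member.

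Of the members, 3 share exons with a gene on the opposite strand, and whether the counting used the strand is not given in the sources used here. ATP6V1C2, a subunit of the proton pump, lies opposite PDIA6, and its counts were 41.4 to 42.6% of those of PDIA6 with TGF-β1 plus acetate, 41.5 to 42.8% with TGF-β1 and 40.7 to 42.6% in control. Its log2 fold changes were 0.47 for TGF-β1 against control and 0.03 for TGF-β1 plus acetate against TGF-β1, like those of PDIA6. The ratio was nearly constant in all 12 libraries, and whether the 2 genes share reads was not tested. ALG12, a mannosyltransferase of N-glycan assembly, lies opposite CRELD2, and its counts were 96.5 to 105% of those of CRELD2 with TGF-β1 plus acetate, 93.5 to 110% with TGF-β1 and 156 to 184% in control. That ratio was not constant: ALG12 had log2 fold changes of -0.01 for TGF-β1 against control and -0.27 for TGF-β1 plus acetate against TGF-β1. ATP6V1C2 and ALG12 were chosen after their values were seen.

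**Figure D4:**
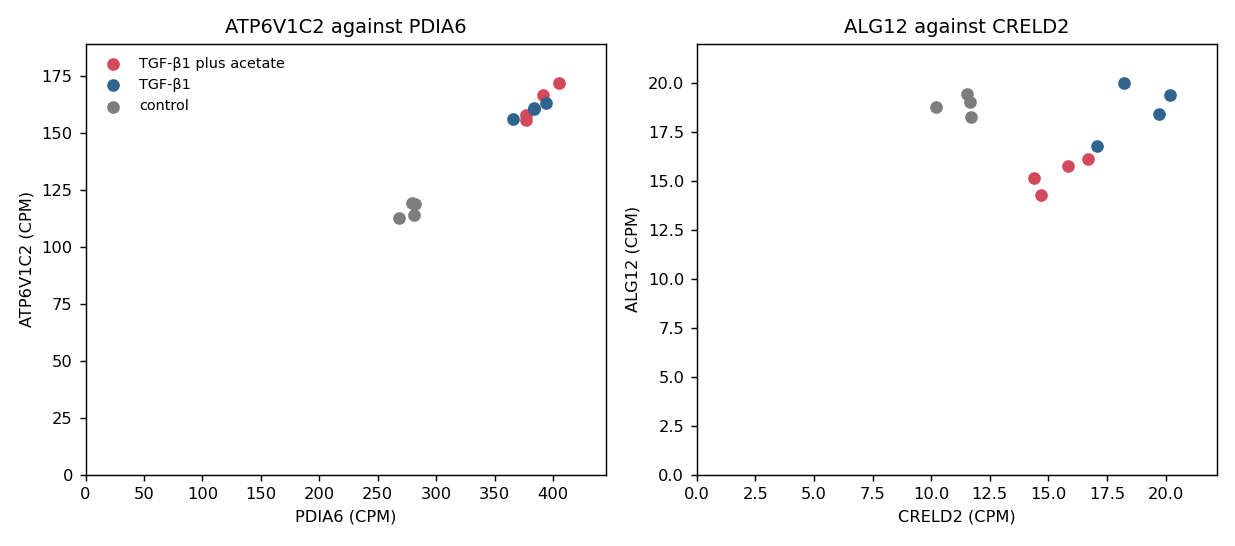
Level of ATP6V1C2 against PDIA6 and of ALG12 against CRELD2 (CPM, axes from 0), 1 point per library, coloured by group. ATP6V1C2 stays at 40.7 to 42.8% of PDIA6 in every group, while the ratio of ALG12 to CRELD2 is lower in both treated groups than in control.

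The members were set beside lists of other genes of the same pathways, also chosen with earlier results of these data known. Over all genes tested, the median log2 fold change was 0.02 for TGF-β1 against control, with 34.1% higher and 32.8% lower. For TGF-β1 plus acetate against TGF-β1 it was 0.03, with 33.3% higher and 30.4% lower. With library totals, 41.2% and 67.1% of all passing genes were higher in these comparisons. The counts of each list below are to be read beside these shares. Splits by library totals are given beside those by TMM factors where the share of higher genes moved by more than 10 percentage points. Sensors and their activating proteases, without the members, held 9 tested genes, of which 6 were higher and 1 was lower with TGF-β1 than in control (median log2 fold change 0.25; 5 and 2 with library totals). EIF2AK3, which encodes PERK, rose by 0.24 ± 0.05 on the log2 scale (0.14 with library totals). MBTPS2, one of the proteases that cut ATF6, fell by 0.83 on that scale. CREB3L1 and CREB3L2, ER-anchored factors of the ATF6 family, rose by 2.35 and 0.72, although CREB3L1 averaged only 1.46 ± 0.239 CPM with TGF-β1 and 0.285 ± 0.0169 CPM in control (SD, n = 4 each). In TGF-β1 plus acetate against TGF-β1, 4 of the 9 were higher and 4 lower (5 and 3 with library totals). There CREB3L1 rose by 1.86. ATF6B, the paralogue of ATF6, and ERN2, the epithelial form of IRE1, had log2 fold changes of -0.43 and -1.05. ERN2 averaged only 1.57 ± 0.173 CPM with TGF-β1 plus acetate and 3.29 ± 0.476 CPM with TGF-β1 (SD, n = 4 each). CREB3L4 had -0.44, and EIF2AK3 did not pass (0.02; edgeR adjusted p = 0.68) with TMM factors.

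Of 19 tested chaperones and co-chaperones outside the members, 9 were higher and 7 lower with TGF-β1 than in control (median 0.14; 7 and 9 with library totals, so that the balance turned). HSPA5, which encodes BiP, the chief chaperone of the ER, had 285, 256, 281 and 272 CPM with TGF-β1, against 213, 218, 201 and 192 CPM in control. It rose by 0.42 ± 0.05 (SE) on the log2 scale without overlap. HSP90B1 rose by 0.49, PPIB, a peptidyl-prolyl isomerase, rose by 0.77, and the lectin chaperone CLGN fell by 1.03. DNAJB9, a co-chaperone that acts on BiP, had 17.2, 17.3, 17.97 and 16.6 CPM with TGF-β1, against 21.2, 26.8, 27.3 and 24.01 CPM in control, and fell by 0.51. HYOU1, a large ER chaperone, had a log2 fold change of -0.02 (edgeR adjusted p = 0.63; -0.12 with library totals, adjusted p = 0.0052). In TGF-β1 plus acetate against TGF-β1, 11 of the 19 were higher and 2 lower (median 0.13; 15 higher with library totals): CLGN rose by 1.01, DNAJB9 by 0.50, FKBP14 by 0.50 and DNAJC1 by 0.49. HSPA5 had -0.17 (edgeR adjusted p = 0.0067), with the libraries of the groups overlapping, and lost its call with library totals (-0.04, adjusted p = 0.51). HSP90B1 and HYOU1 did not pass with TMM factors (-0.05 and 0.06), and with library totals they passed upward (0.08 and 0.19). HSP90B1 passed downward instead with RLE scaling (-0.07, adjusted p = 0.036) and with DESeq2 (-0.07, adjusted p = 0.0077).

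Of 18 other disulfide isomerases and oxidases tested, 11 were higher and 5 lower with TGF-β1 than in control (median 0.20). PDIA3, the isomerase that works with calreticulin, rose by 0.77 and TXNDC5 by 0.87. AGR2, an isomerase of mucin-secreting epithelia, averaged 1.59 ± 0.176 CPM with TGF-β1 and 300.4 ± 10.9 CPM in control (SD, n = 4 each), a log2 fold change of -7.56. With TGF-β1 plus acetate it averaged 29.01 ± 3.24 CPM (SD, n = 4), a log2 fold change of 4.2 against TGF-β1. In that comparison 7 of the 18 were higher and 5 lower (median 0.02; 11 and 2 with library totals), among them ERP44 (0.44), the sulfhydryl oxidase QSOX1 (0.50) and ERO1B (0.54), which reoxidises disulfide isomerases.

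Of 32 other genes of ER-associated degradation, 13 were higher and 9 lower with TGF-β1 than in control (median 0.04). With library totals 9 were higher and 14 lower. Over all genes tested with TMM factors, 34.1% were higher and 32.8% lower. The extracting ATPase VCP rose by 0.54 and the lectin OS9 by 0.44, while ERLIN2 fell by 0.38. SEL1L, the partner of the ligase of this pathway, did not pass with TMM factors (-0.09; edgeR adjusted p = 0.089) and passed downward with RLE scaling (-0.10, adjusted p = 0.048) or library totals (-0.19). Between TGF-β1 plus acetate and TGF-β1, 9 were higher and 13 lower (median -0.02), but 18 higher and 7 lower with library totals. All genes tested with TMM factors had 33.3% higher and 30.4% lower in that comparison. VCP had -0.36 there (-0.23 with library totals), and the mannosidase-like genes EDEM1 and EDEM2 had 0.42 and 0.55. SEL1L3 had 0.76, and SEL1L did not pass (0.04; edgeR adjusted p = 0.25), except upward with library totals (0.17).

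Of 39 genes of the translocon, signal peptide processing and N-glycosylation, 23 were higher and 9 lower with TGF-β1 than in control (median 0.12; 18 and 13 with library totals). SPCS3 (1.11), SSR2 (0.74) and OST4 (0.56) rose, and TRAM1 fell by 1.36. In the acetate comparison 11 were higher and 16 lower (median -0.05), 6 higher and 17 lower without S17, and 19 higher and 8 lower with library totals. Its largest changes had TRAM1 at 0.87, SEC61A2 at 0.50, and both subunits of glucosidase II, GANAB and PRKCSH, at -0.44. Of 29 genes of COPII export and KDEL retrieval, 19 were higher and 5 lower with TGF-β1 than in control (median 0.24; 15 and 9 with library totals). Between TGF-β1 plus acetate and TGF-β1, 15 were higher and 4 lower (median 0.08; 23 and 1 with library totals). KDELR3, a receptor that returns ER proteins from the Golgi, rose in both, by 1.18 and 0.57. SEC24D, a cargo adaptor of COPII coats, rose by 0.87 and SURF4 by 0.67 with TGF-β1, as did TMED9 (0.60). KDELR1 (0.53), SEC23B (0.47) and SEC16B (1.33) rose with TGF-β1 plus acetate against TGF-β1. SEC16B averaged only 2.37 ± 0.194 CPM with TGF-β1 plus acetate and 0.944 ± 0.0699 CPM with TGF-β1 (SD, n = 4 each).

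The list of PERK and ATF4 output was the most one-sided: of 20 tested genes, 19 were lower with TGF-β1 than in control, with a median log2 fold change of -1.82. The remaining gene, ATF5, did not pass (0.03; edgeR adjusted p = 0.61). DESeq2, limma-voom, RLE scaling, library totals and the fits without S17 or S2 gave the same count of 19 lower. TRIB3, a pseudokinase induced by ATF4, had 27.3, 27.6, 34.3 and 27.8 CPM with TGF-β1, against 595, 714, 659.7 and 675 CPM in control (-4.49 ± 0.07, SE). DDIT3, which encodes the factor CHOP, had 9.85, 10.6, 14.9 and 10.3 CPM with TGF-β1, against 63.8, 73.4, 69.1 and 69.6 CPM in control (-2.58 ± 0.09, SE). S17 was the highest TGF-β1 library for both, and still far below control. ATF4 fell by 0.57, with S17 included, against 322, 330.4, 333 and 342 CPM in control. The largest falls of the list were those of NUPR1 (-5.31), TRIB3, GDF15 (-4.10) and CHAC1 (-3.01, and -4.77 without S17), of which NUPR1 and GDF15 were named after their values were seen. Among its amino acid genes, asparagine synthetase ASNS was at -2.73, the serine enzyme PSAT1 at -2.41 and the cystine carrier SLC7A11 at -2.04.

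With TGF-β1 plus acetate against TGF-β1, 6 of these 20 genes were higher and 7 lower (median -0.01; 8 and 5 with library totals). ATF4 had 147, 148, 156 and 149 CPM with TGF-β1 plus acetate, and its log2 fold change was -0.56 ± 0.08 (SE; edgeR adjusted p = 1.5e-05). That value includes S17, at 277 CPM beside 195, 206 and 214 CPM in the other TGF-β1 libraries, and is not given without it. ASNS had -1.11, ATF5 -0.81, CEBPG -0.50 and DDIT3 -0.37, while TRIB3 rose by 0.68. DDIT3 had -0.23 without S17 (adjusted p = 0.029), and its call was lost with library totals (-0.23, adjusted p = 0.088). CHAC1, which did not pass (-1.47; edgeR adjusted p = 0.056), had 0.20 without S17. Against control, TGF-β1 plus acetate left all 20 lower (median -1.81), also with DESeq2 and limma-voom. Of 14 genes of UPR cell death outside the members, 4 were higher and 9 lower with TGF-β1 than in control (median -0.43), with the BH3 protein gene BCL2L11 at 1.28 and the caspase gene CASP4 at -1.58. In the acetate comparison 6 were higher and 5 lower (median 0.02; 6 and 2 with library totals), with the death receptor genes TNFRSF10B and TNFRSF10A at 0.45 and 0.40, MAPK8 at -0.46 and BCL2 at -1.16.

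**Figure D5:**
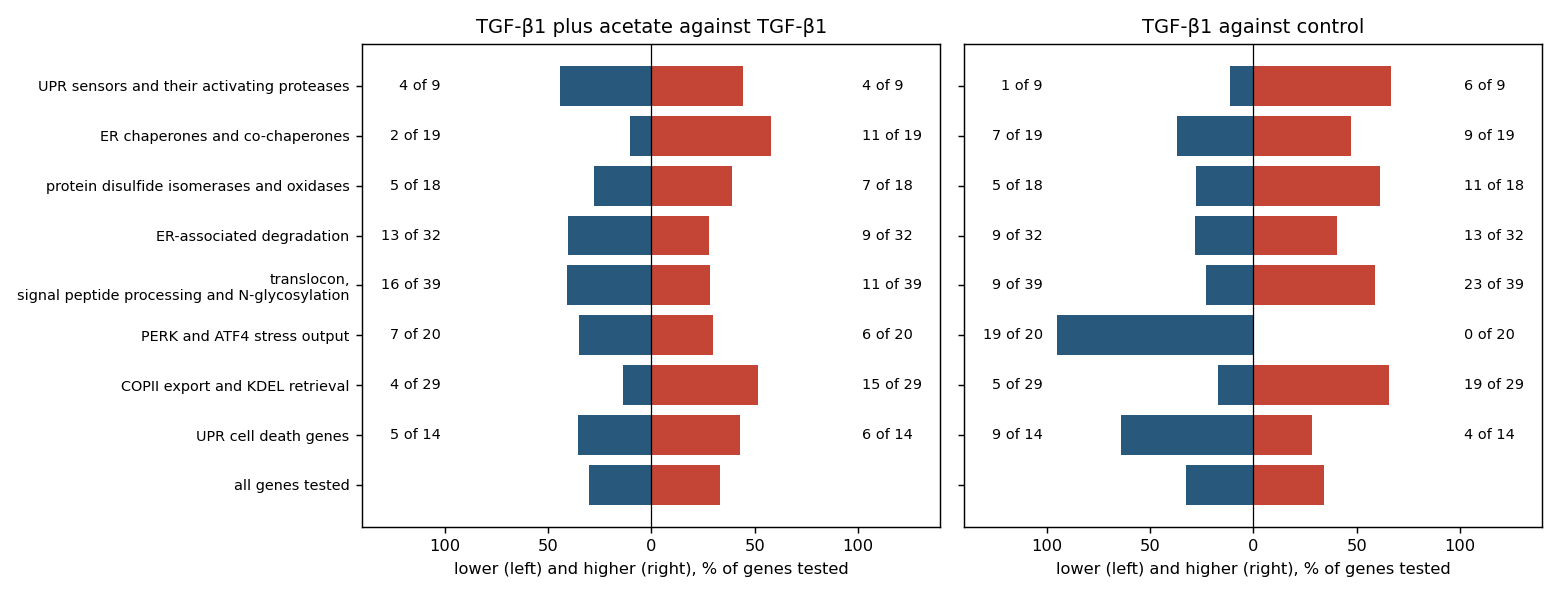
Share of the tested genes of 8 pathway lists, without the 10 members, that were lower (bars to the left) or higher (bars to the right) by edgeR at an adjusted p below 0.05 with TMM factors, for TGF-β1 plus acetate against TGF-β1 (left panel) and TGF-β1 against control (right panel); numbers beside the bars are genes of those tested, and the last row holds all genes tested. The PERK and ATF4 list has 19 of 20 genes lower with TGF-β1 than in control, and 7 lower and 6 higher in the acetate comparison.

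The genes whose log2 CPM followed a member most closely over the 12 libraries were sought among 9797 genes at or above the median level. Genes with clone-type, LINC or LOC symbols, and those whose symbol ends in P or in P and digits, had been left out. That drops some coding genes, such as VCP, so a closer gene among those left out is possible. XBP1 was most like MARS and GARS, which encode the methionyl and glycyl tRNA synthetases (Pearson r 0.999 and 0.998), and BMPR1B (0.998). ERN1 was most like the amino acid carrier gene SLC1A4 (0.997), RBCK1 and LIMD1 (both 0.996). CALR was most like KIAA0930, TBC1D1 and the collagen prolyl hydroxylase gene P4HA2 (all 0.998), and SDF2L1 was most like LLGL1 (0.991), BAX and P3H4 (both 0.990). MANF was closest to CANT1 (0.998), SPHK1 and REXO2 (both 0.996), PDIA4 to MYL6B (0.997), CETN2 and GPAT4 (both 0.996), and PDIA6 to ATP6V1C2 (0.996), KIAA0930 and DBN1 (both 0.995). CRELD2 was closest to RPS6KA4 (0.991), TBX3 and LDB1 (both 0.990). The values were lower for HERPUD1, with KLF10 (0.982), BIRC2 and POLR1D (both 0.970), and for ATF6, with DCAF10 (0.980), PPP1R12B (0.979) and GFPT1 (0.976). These r describe 12 libraries that fall into 3 groups, and genes of like group means score high together.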

How the data were processed

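A549 total RNA was depleted of ribosomal RNA and sequenced as stranded paired reads of 75 bp, per the labels. The submitters' processing notes name bcl2fastq, HISAT2, limma and the build hg38. Not given in the sources used here are versions, the counter, its strand setting and the annotation. The 2 deposited tables hold the authors' raw counts per gene, besides the authors' log2 fold changes and q-values, with 24459 and 24745 genes. The shared TGF-β1 counts were identical in all 23771 shared genes, and 32 further columns of values per library were not used. Column codes were placed in groups as the report states.

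Counts were tested with edgeR 4.0.16 in R 4.3.3 (filterByExpr with a minimum count of 10 and total of 15, TMM factors, quasi-likelihood test, two-sided, Benjamini-Hochberg adjustment over all genes, threshold 0.05). The 2 comparisons that share TGF-β1 were fitted within their tables, and TGF-β1 plus acetate against control in a joint fit of 12 libraries. The procedure was tested on simulated data. The SE is the log2 fold change divided by the root of F. Likeness used log2(CPM + 0.5). Positions and transcripts come from GENCODE release 29, promoters from RefSeq. Alternatives were library totals, RLE scaling, DESeq2 1.42.0, limma-voom (limma 3.58.1), other filters, a joint fit and leaving out each library. The members and lists were chosen with earlier results of these data known. Named genes were the members, the 4 smallest p per list in each of the first 2 comparisons, 9 set genes (HSPA5, HSP90B1, DNAJB9, EIF2AK3, ATF4, DDIT3, TRIB3, SEL1L and HYOU1) and the 3 genes most like each member; others are marked as chosen later. One gene that this rule names is not reported here. Counting error alone sets the floor of 3 counts.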

Additional observations from a re-analysis of the deposited data

Results flagged for a closer look

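Each member was examined in each group for a library whose gap to its nearest neighbour exceeded 0.829 of the group's range. In 30 groups 4 values did so, where chance gives about 1 in 20 for independent groups. The members were read in the same libraries, so the 30 groups are not independent. All 4 values lie in S17 or S2. XBP1 in TGF-β1 library S17 was at 73.5 CPM, with a gap of 0.943 of the range. HERPUD1 in the same library was at 72.7 CPM, with a gap of 0.846. PDIA6 in control library S2 was at 268 CPM, below the other 3, with a gap of 0.866. CRELD2 in the same library was at 10.2 CPM, with a gap of 0.878.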

How the results depend on the processing

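Each comparison was recomputed under 15 alternatives. The count of members passing, both directions together, stayed within 1.5 times that reported in all 45 recomputations of it. The split by direction moved more. In TGF-β1 plus acetate against TGF-β1, 2 members were higher with TMM factors, and library totals added PDIA6 and ERN1 to them. Of 450 recomputed fold changes of members, 437 kept direction and call, 6 gained a call, 4 lost one and 3 changed sign. In TGF-β1 plus acetate against TGF-β1, library totals turned SDF2L1 to 0.084 (adjusted p = 0.33) and PDIA4 to 0.069 (adjusted p = 0.074), and leaving out S15 turned PDIA6 to -0.0141 (adjusted p = 0.74), in a range from -0.0141 to 0.0436 over the libraries left out. The 4 lost calls were all of CALR in that comparison: 0.08 with RLE scaling (adjusted p = 0.055) and those without S15, S16 or S17. Its values ran from 0.06 to 0.23 over the alternatives, with adjusted p from 3.1e-06 to 0.14. HERPUD1 in TGF-β1 against control ran from -0.22 (library totals, adjusted p = 0.0037) to -0.08. Library totals moved the median of all genes by -0.10 in TGF-β1 against control, where 41.2% of passing genes were then higher, against 51.0% with TMM. The cause of these changes was not tested. No paired analysis was possible because the count columns carry codes and no replicate numbers. Depth limits mainly SDF2L1, ERN1 and CRELD2, the members with the fewest reads with TGF-β1.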

Other observations

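Beyond the members, 38 genes had an ERSE or ERSE-II match in a RefSeq promoter window, and 23 of them were tested in each comparison. With TGF-β1 against control, 12 were higher and 6 lower (median log2 fold change 0.20), beside 4 higher and 1 lower of the 6 members with a match and, over all genes tested, 34.1% higher and 32.8% lower. The largest changes were those of SYNPO (-1.79), an actin-associated protein, and GYS1 (1.13), a glycogen synthase. HSPA5 (0.42) and HSP90B1 (0.49) were among those that rose, as was NUCB1 (0.33), a calcium-binding protein. CANX (-0.15), which encodes calnexin, and FICD (-0.17), which modifies BiP, were lower. With TGF-β1 plus acetate against TGF-β1, 5 were higher and 8 lower (median 0.05), beside 1 higher and 3 lower of the 6 members and, over all genes tested, 33.3% higher and 30.4% lower. SYNPO again had the largest change (1.90), with ERO1B at 0.54 and SERP1, a translocon-associated protein, at -0.11. These splits used TMM factors and are not given with library totals. On that scale, in the acetate comparison, HSPA5 lost its call (-0.04; edgeR adjusted p = 0.51). HSP90B1 (0.08), HYOU1 (0.19) and the member PDIA6 (0.16) then passed upward. The genes other than the members, HSPA5, HSP90B1, HYOU1 and ERO1B were picked from this list after their values were seen. A share of 0.0769% or 0.0541% of windows with a match leaves few genes to compare.

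Small RNAs of 819 genes took 5.24 ± 0.425% of counts with TGF-β1 plus acetate, 6.54 ± 0.482% with TGF-β1 and 7.14 ± 0.823% in control (SD, n = 4 each). Their part in the differences between TMM factors and library totals was not tested.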
